A study of Mus musculus with 5 samples.

Results

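The cytosolic ribosomal protein genes of the developing mouse cerebellum were described in single cells. They were chosen by symbol: every gene of the expression table named Rpl or Rps with a number, plus Rplp0, Rplp1, Rplp2 and Rpsa. This gave 81 of the 15971 genes, 49 of the large subunit and 32 of the small subunit. The rule uses symbols alone, although Rpl26 and Rpl29 were already known to shift between libraries. Fau and Rpl36al also encode or carry ribosomal proteins but fall outside the rule by name, and they were kept apart.

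Ribosomal proteins and ribosomal RNA are assembled in the nucleolus into a small subunit, which decodes the mRNA, and a large subunit, which joins amino acids. Most ribosomal protein mRNAs begin with a C and a run of pyrimidines, the 5′ terminal oligopyrimidine (TOP) tract, through which mTOR signalling sets their translation. Growing progenitors are known to make many ribosomes, and in some ribosomal protein disorders free Rpl5 and Rpl11 bind Mdm2 and stabilise p53.

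Cells came from the cerebellum of mouse embryos and were sequenced with droplet 3′ kits, which count each captured mRNA molecule by a unique molecular identifier (UMI). The 5 libraries formed 3 groups: 1 library named EomesCreER at e16, 2 named RL at e14 and 2 named RL at e13, where RL is taken to stand for the rhombic lip, the dorsal germinal zone that gives rise to granule cells and unipolar brush cells. EomesCreER is read as a line with inducible Cre driven from Eomes, on the name alone, and its other alleles and any treatment or sort are not given in the labels. The RL titles carry UT, which is not explained, and the labels give no further genotype, strain or sex for any library; RL e13 replicate 2 has e14 as its age tag. The e16 library held 2676 cells with a median of 10346 UMIs, and the RL libraries held 706 to 1818 cells with medians of 15855 to 19970 UMIs. 6 cell barcodes occurred in more than 1 library. Nothing states that replicates are separate animals, so p-values measure only how far these libraries vary, and that variation may be technical.

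Cells were placed in gates by 4 lineage readouts, in UMIs per 10000 UMIs of the cell. The Mapt gate (Mapt at least 2) takes neurons that express the microtubule protein tau. The Eomes and Lmx1a gate (both at least 1) takes cells with both transcription factors of the brush cell lineage. The Atoh1 gate (Atoh1 at least 2) takes cells with the granule progenitor factor, and the Sox2 gate (Sox2 at least 2) takes cells with the neural stem cell factor. Cells of the Eomes and Lmx1a gate were taken first, whatever their Mapt, Atoh1 or Sox2 level, and were left out of the other gates. At e16 the Mapt gate held 1008 cells, against 2362 when gates could overlap. Of the remaining cells, those that met 2 of the Mapt, Atoh1 and Sox2 conditions were in no gate. A gate was used in a library with 20 or more cells. This left out the Sox2 and Atoh1 gates at e16 and the Eomes and Lmx1a gate in RL e14 replicate 1. It also left out both neuronal gates in RL e13 replicate 1. These gates held 9, 15, 16, 1 and 0 cells, the last 2 being the Mapt gate and the Eomes and Lmx1a gate. A gate is a range of marker levels and not a cell type. The neuron and progenitor markers went with the gate names, and the lineage markers separated the gates less well: 5 postmitotic neuron markers (Dcx, Tubb3, Stmn2, Gap43, Ina) summed to 11675 to 16103 counts per 1000000 UMIs (CPM) in the Mapt gate, 9116 to 12345 CPM in the Eomes and Lmx1a gate, 1183 to 1733 CPM in the Atoh1 gate and 218 to 322 CPM in the Sox2 gate. The 5 progenitor markers (Hes5, Fabp7, Slc1a3, Vim, Ednrb) reached 7538 to 13587 CPM in the Sox2 gate and 1573 to 2747 CPM in the Atoh1 gate. They summed to 529 to 1605 CPM in the Mapt gate and 290 to 1572 CPM in the Eomes and Lmx1a gate. The ranges of the Mapt and Atoh1 gates thus overlapped slightly. The 5 brush cell lineage markers summed to 3502 to 4217 CPM in the Eomes and Lmx1a gate, 2251 to 2909 CPM in the Mapt gate and 1004 to 1270 CPM in the Atoh1 gate. The 5 granule lineage markers were higher in the Eomes and Lmx1a gate (1564 to 1751 CPM) and reached 1406 to 1750 CPM in the Mapt gate, against 862 to 1563 CPM in the Atoh1 gate. Microglia, endothelial and meningeal markers summed to at most 36.7 CPM in any gate. Other lists were higher: roof plate and choroid plexus markers summed to 31.9 to 127 CPM in the Sox2 gate. Red blood cell markers reached up to 76.3 CPM in the Eomes and Lmx1a gate and 63.4 CPM in the Sox2 gate.

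RefSeq promoters (GRCm38.p6) were held for 60 members, and 6 are shown: Rpl26, Rpl35a and Rps3a1, whose levels differed between sets of cells, Rpl22l1 and its parent Rpl22, and Rpl10, at the other end of the range from Rpl22l1. Each line gives 40 bases before the annotated start and 20 from it, 5′ to 3′ on the strand of the gene, and capitals mark CCGGAAG, the letters of an ETS-family site. For Rpl22 the start used is an internal one: the annotated gene begins at chr4:152324436, before the bases shown.
Rpl26, chr11:68901526-68901585, plus strand: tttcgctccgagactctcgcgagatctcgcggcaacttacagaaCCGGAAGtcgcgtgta
Rpl35a, chr16:33056413-33056472, plus strand: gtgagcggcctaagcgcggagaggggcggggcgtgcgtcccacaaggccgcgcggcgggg
Rps3a1, chr3:86142649-86142708, minus strand: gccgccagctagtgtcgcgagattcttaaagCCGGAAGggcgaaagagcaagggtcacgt
Rpl22l1, chr3:28805468-28805527, plus strand: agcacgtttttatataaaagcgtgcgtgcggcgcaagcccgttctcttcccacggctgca
Rpl22, chr4:152325686-152325745, plus strand: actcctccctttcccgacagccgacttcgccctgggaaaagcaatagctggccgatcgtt
Rpl10, chrX:74270776-74270835, plus strand: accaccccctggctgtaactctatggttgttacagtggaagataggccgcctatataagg
Over the 300 bases from 250 before to 50 after the start, CCGGAAG was present on either strand in 24 of the 60 member promoters, against 16.3% of 11415 promoters of genes in the table. AAGATGGC, the letters of a YY1 site, was present on either strand in 8.33% of member promoters and 4.25% of all. A C followed by 5 or more C or T, searched on the gene's strand within 25 bases of the start, was present in 63.3% of member promoters and 34.6% of all. These motifs may overlap each other, the matches are letters and not shown sites, and annotated starts can lie away from the used one.

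In every RL library with both kinds of gate, cells of the neuronal gates had a smaller share of ribosomal protein mRNAs than cells of the Atoh1 and Sox2 gates. In the Mapt gate the mean share was 14.5% of a cell's UMIs in RL e14 replicate 1, 11.6% in RL e14 replicate 2, 13.9% in RL e13 replicate 2 and 11.2% in the e16 library. In the Eomes and Lmx1a gate it was 13.8% in RL e14 replicate 2, 14.6% in RL e13 replicate 2 and 11.3% in the e16 library. The Atoh1 gate had the highest shares, 23.9% and 23.8% at RL e14 and 20.3% and 21.1% at RL e13. The Sox2 gate stood between, at 21.3% and 19.1% in RL e14 and 19.3% and 18.9% in RL e13. No neuronal gate overlapped a progenitor gate in its library means, whereas the Sox2 and Atoh1 gates overlapped across libraries. Counting error was small beside these gaps, with 95% Wilson intervals of at most ±0.106 points. These are shares of a cell's UMIs: fewer transcripts of members and more of other genes cannot be told apart from them.

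**Figure D1:**
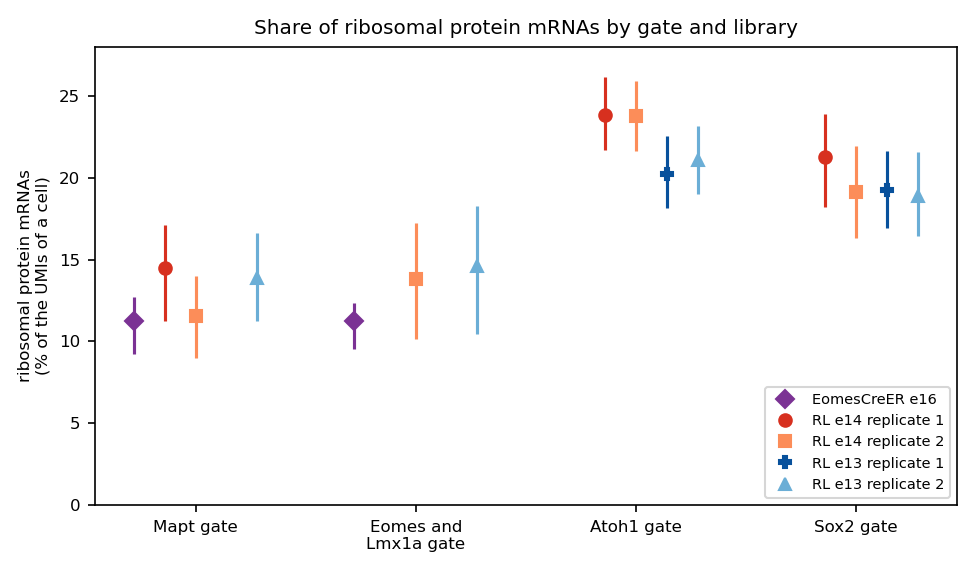
Share of ribosomal protein mRNAs in the UMIs of a cell (%, y axis) by gate (x axis); symbols are means over the cells of each library and vertical lines run from the 25th to the 75th percentile of cells. Means lie between 11.2% and 14.6% in the Mapt and the Eomes and Lmx1a gates and between 18.9% and 23.9% in the Atoh1 and Sox2 gates.

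Within libraries the Mapt gate differed from the Atoh1 gate by -9.38, -12.2 and -7.25 percentage points, a mean of -9.62 ± 2.49 points (SD, n = 3). The Eomes and Lmx1a gate differed from the Atoh1 gate by -9.97 and -6.51 points in the libraries that held both. The Atoh1 gate exceeded the Sox2 gate by 2.60, 4.68, 0.994 and 2.245 points, the same direction in 4 of 4 libraries. The Mapt gate and the Eomes and Lmx1a gate differed by -0.0386 points at e16, -2.25 points in RL e14 replicate 2 and -0.739 points in RL e13 replicate 2. Large subunit mRNAs made up 1.08 to 1.12 times the UMIs of small subunit mRNAs in the Atoh1 gate and 1.11 to 1.25 times in the Mapt gate, where the upper end is the e16 library. Mitochondrial ribosomal protein mRNAs, which serve the separate ribosome inside mitochondria, took 0.60% to 0.66% in the Mapt gate and 0.76% to 0.81% in the Atoh1 gate.

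Cells in cycle had a smaller share than the other cells of the same gate. Cycling cells were those with Mki67 plus Top2a, a proliferation antigen and a mitotic topoisomerase, of at least 1 per 10000 UMIs. In the Atoh1 gate their share minus that of the other cells was -3.37 and -3.30 points in RL e14 and -2.22 and -2.96 points in RL e13. In the Sox2 gate it was -3.34 and -1.32 points in RL e14 and -3.23 and -3.14 points in RL e13. All 8 values had the same sign. Cycling cells also had more UMIs in each pair, for example a median of 26123 against 20194 in the Atoh1 gate of RL e14 replicate 2, and the part of depth in the difference was not tested.

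The Mapt gate was compared with the Atoh1 gate over 3 RL libraries, gene by gene. The test was limma on log2(CPM + 5), with the library as a block. Of 79 members tested, 79 fell in the Mapt gate and 0 rose, at a Benjamini-Hochberg adjusted p under 0.05 over all 8280 genes tested, of which 30.1% fell. The median over members was -0.78, against 0.00 over all genes, of which 30.8% rose. Scaled to UMIs other than those of members, 38.2% of all genes fell and 23.4% rose, the median of all genes moved to -0.16 and that of members to -0.94. Rpl29 and Rpl6l were too low to test here. In 3 of 3 libraries 79 members were lower, against 38.4% of all genes. The members called were 32 of 32 small subunit genes and 47 of 47 large subunit genes.

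The size of the fall differed among members. Rpl22l1, a paralog of Rpl22 that can take its place in the ribosome, had 396, 378 and 486 CPM in the Mapt gate and 1033, 1113 and 1125 CPM in the Atoh1 gate (RL e14 replicates 1 and 2, then RL e13 replicate 2). The gates did not overlap, and Rpl22l1 fell by 1.37 ± 0.09 (SE, limma adjusted p = 2.1e-07), the lowest difference of all members tested. Rpl12, a protein at the base of the stalk that recruits elongation factors, fell by 1.16, and Rps2, at the mRNA entrance of the small subunit, fell by 1.15. Rpl26 fell by 1.13, a call lost with no library block (adjusted p = 0.22). Its cells split into high and low sets, described further on, and high cells made up 48.7%, 78.4% and 7.22% of the Mapt gate and 68.7%, 68.5% and 17.2% of the Atoh1 gate. Within high cells the differences were -0.61, -0.95 and -0.53.

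The stalk genes and Rpsa fell with the rest. Rpsa, a small subunit protein also known as the laminin receptor, had 2612, 2036 and 2661 CPM in the Mapt gate and 5255, 5406 and 4561 CPM in the Atoh1 gate, a difference of -1.06 (limma adjusted p = 3.9e-05). Of the stalk proteins, Rplp1 fell by 0.99, Rplp0 fell by 0.86 and Rplp2 fell by 0.84. Rpl5 and Rpl11, which bind 5S rRNA together and can bind Mdm2, had differences of -0.82 and -0.62, both called.

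Rpl10, an X-linked large subunit protein that joins late in assembly, had the smallest difference of the members tested. It had 2064, 2243 and 2027 CPM in the Mapt gate and 2462, 2948 and 2339 CPM in the Atoh1 gate, which do not overlap. Its difference was -0.28 ± 0.10 (SE, limma adjusted p = 0.029), and the call was lost under 7 of the alternatives tried. Rps7 fell by 0.49, Rpl24 fell by 0.52, Rpl7a fell by 0.53 and Rpl38 fell by 0.59, so these 4 lay next to Rpl10 at the upper end. The Rps7 call was lost without RL e14 replicate 1 (limma adjusted p = 0.067).

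**Figure D2:**
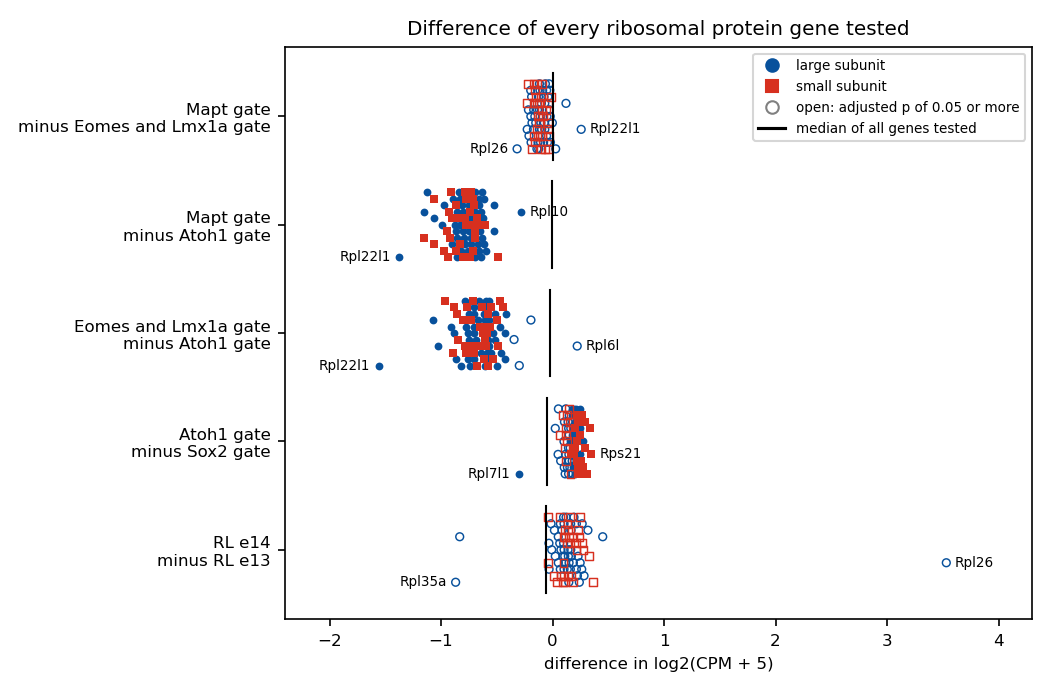
Difference of each member tested (x axis, log2(CPM + 5)) in 5 comparisons (rows); circles are large and squares small subunit genes, open symbols missed the threshold and black lines mark the median of all genes. Members form a tight group left of the line in both neuronal gates against the Atoh1 gate, with Rpl22l1 at the far left, and a group right of it for the Atoh1 gate against the Sox2 gate.

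Related lists moved in the same comparison. Of 18 translation factors and other TOP mRNAs, 17 fell in the Mapt gate, and Eef2, the translocation factor, differed by -0.08 without passing the test. Npm1, a nucleolar chaperone, fell by 1.69, Eef1d, an exchange factor for elongation factor 1, fell by 1.61, and Pabpc1, the poly(A)-binding protein, fell by 1.03. Of 24 ribosome biogenesis genes tested, 20 fell and 1 rose: the nucleolar GTPase gene Gnl3 fell by 1.87, Dkc1, the pseudouridine synthase, fell by 1.86, Gar1, its partner, fell by 1.85, and Rrn3, a factor of RNA polymerase I, rose by 0.63. The Rrn3 call was lost with thinned cells (0.37, limma adjusted p = 0.086). Of 72 mitochondrial ribosomal protein genes, 41 fell and 2 rose, with Mrpl17 (-0.87), Mrpl15 (-0.84) and Mrpl42 (-0.78) the lowest. Of the ribosomal genes outside the rule, Rpl36al (-0.56) and Fau (-0.49) fell too. The Rpl36al call was lost with thinned cells (limma adjusted p = 0.059). That of Fau was lost without RL e14 replicate 1 (limma adjusted p = 0.077). The medians were -0.52 for the TOP list, -1.17 for biogenesis and -0.30 for the mitochondrial list, against 0.00 for all genes.

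The Myc family and p53 target lists gave values in opposite directions. Of 4 Myc family genes tested, 3 fell: Myc, which drives ribosome biogenesis, by -1.78, Mycl by -1.76 and Mycn by -1.33. Of 6 p53 targets tested, 4 rose, among them Cdkn1a, the cell cycle inhibitor p21, at 2.68 (103 ± 52.6 CPM in the Mapt gate and 11.3 ± 6.04 CPM in the Atoh1 gate, SD, n = 3), Trp53inp1 at 0.56 and Mdm2 at 0.38. The Mdm2 call was lost under 4 alternatives, with 0.12 (adjusted p = 0.61) in overlapping gates and 0.16 (adjusted p = 0.32) with thinned cells, where Trp53inp1 was lost too (0.40, adjusted p = 0.062). Cell cycle markers moved with these results: 5 of them (Mki67, Top2a, Cdk1, Ccnb1, Aurkb) summed to 15.0 to 53 CPM in the Mapt gate and 503 to 902 CPM in the Atoh1 gate. The 9 stress and dissociation genes named further on summed to 1006 to 1688 CPM in the Mapt gate and 741 to 925 CPM in the Atoh1 gate. The part of either list in the differences was not tested.

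In the Eomes and Lmx1a gate the ribosomal protein genes were again lower than in the Atoh1 gate. This comparison rests on 2 libraries with 25 cells each in the Eomes and Lmx1a gate. Of 80 members tested, 76 fell and 0 rose, against 14% of 8340 genes that fell (limma, adjusted p under 0.05), and the median was -0.63 against -0.02 over all genes, of which 14.3% rose. Scaled to UMIs other than those of members, 21.5% of all genes fell and 12.8% rose. In both libraries 79 members were lower, against 38.5% of all genes, and 0 were higher, against 37.1%. With no filter on low values 14 members fell, and without the library block 48 fell. The shares of all genes that fell under these settings are not given here, so a loss particular to members cannot be read from these counts. Rpl22l1 had 292 and 485 CPM in the Eomes and Lmx1a gate and 1113 and 1125 CPM in the Atoh1 gate (RL e14 replicate 2, then RL e13 replicate 2), with no overlap. It fell by 1.56 ± 0.16 (SE, limma adjusted p = 4.2e-05), again the lowest value, followed by Rpl12 (-1.07), Rpl36a (-1.03), Rps2 (-0.96) and Rpl14 (-0.91).

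The members that did not pass were Rpl10 (-0.19), Rpl24 (-0.30), Rpl23a (-0.35) and Rpl6l (0.22, at 16.2 CPM on average in the Eomes and Lmx1a gate). Rpl21 fell by 0.42. Rplp0 (-0.88), Rplp1 (-0.87), Rpsa (-0.85), Rpl5 (-0.70), Rplp2 (-0.66) and Rpl11 (-0.52) fell. Of the biogenesis list, 13 of 25 fell, with Gar1 (-1.62), Gnl3 (-1.56) and Dkc1 (-1.52) lowest, and of the TOP list 6 of 18 fell, with Npm1 at -1.38. Cdkn1a rose by 1.28 and was the p53 target called of 6 tested, a call lost in overlapping gates (0.54, adjusted p = 0.32), with no filter (adjusted p = 0.091) and with no library block (adjusted p = 0.11). Cell cycle markers summed to 72.8 to 184 CPM in the Eomes and Lmx1a gate and 503 to 902 CPM in the Atoh1 gate, and their part in the differences was not tested. This comparison and the previous one share Atoh1 gate cells.

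No member passed the threshold between the Mapt gate and the Eomes and Lmx1a gate. Over 3 libraries, 0 of 80 members rose and 0 fell (limma), against 1.24% of 8202 genes that rose and 0.792% that fell. An unadjusted p under 0.05 was found for 7 of the 80 members and 953 of the 8202 genes, a smaller share for members. The median was -0.11, and 38 members were lower in 3 of 3 libraries, against 18.1% of all genes, and 1 was higher, against 16.5%. Rpl26 had the lowest value (-0.32 ± 0.11, adjusted p = 0.22), followed by Rps15 (-0.23). Rpl22l1 had the highest, 0.26 ± 0.11 (SE, adjusted p = 0.40). Its levels were 191, 378 and 486 CPM in the Mapt gate and 143, 292 and 485 CPM in the Eomes and Lmx1a gate (e16, RL e14 replicate 2, RL e13 replicate 2). Cdkn1a rose in the Mapt gate here too, by 1.46 (adjusted p = 0.0042), with the call lost under 3 alternatives.

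Cells of the Atoh1 gate had a somewhat larger share of ribosomal protein mRNAs than cells of the Sox2 gate. Over 4 RL libraries, 40 of 80 members rose in the Atoh1 gate and 1 fell, against 11% of 8422 genes that rose and 18.7% that fell (limma, adjusted p under 0.05). The median was 0.18, against -0.05 over all genes, and 61 members were higher in 4 of 4 libraries, against 18.7% of all genes, and 1 was lower in all 4, against 30.4%. With median of ratios scaling 14.8% of all genes rose and 15.0% fell, and 61 members rose. The differences were small, from -0.30 to 0.35. The count rests on single libraries: 3 members rose without RL e14 replicate 1, 3 without RL e13 replicate 2, 31 without RL e14 replicate 2 and 62 without RL e13 replicate 1. The shares of all genes that rose in these fits are not given here, so these counts do not show whether members changed more than other genes.

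Small subunit genes were at the top of this range. Rps21 had 3092, 2049, 2410 and 2647 CPM in the Atoh1 gate and 2545, 1446, 1994 and 2105 CPM in the Sox2 gate (both RL e14 libraries, then both at RL e13). The gates overlap across libraries, but within each library the Atoh1 gate was higher. Rps21 rose by 0.35 ± 0.05 (SE, limma adjusted p = 0.0034), Rps28 by 0.33 and Rps25 by 0.29. The calls of Rps21 and Rps28 were lost with no library block, and that of Rps25 without RL e14 replicate 1 or RL e13 replicate 2. By subunit, 20 of 32 small subunit genes and 20 of 48 large subunit genes rose, and this difference in counts was not tested.

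For other members no difference passed the test. Rpl22l1 had 0.02 ± 0.05, while its parent Rpl22 rose by 0.24 (adjusted p = 0.033). The Rpl22 call was lost with no filter on low values, with no library block and without RL e14 replicate 1 or RL e13 replicate 2 (limma adjusted p from 0.054 to 0.14). Rpl13 and Rpl17 both had 0.05, Rpsa and Rpl11 0.07, and none of these 4 passed. Rplp2 rose by 0.27 and Rpl5 by 0.16, while Rplp1 (0.15) and Rplp0 (0.12) did not pass. The Rplp2 call was lost with no library block and without RL e14 replicate 1 or RL e13 replicate 2. Rpl7l1, a paralog of Rpl7 known for a role in ribosome assembly, was the member that fell: it had 192, 204, 190 and 190 CPM in the Atoh1 gate and 216, 254, 262 and 232 CPM in the Sox2 gate. These ranges do not overlap, and the difference was -0.30 ± 0.06 (SE, limma adjusted p = 0.011), lower in 4 of 4 libraries, and 0.060 as adjusted p without RL e13 replicate 2. Rpl7 itself rose by 0.18. The calls of Rpl5 and Rpl7 were lost under each alternative named for Rpl22, and also with thinned cells and without RL e14 replicate 2.

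Among the other lists, 5 of 18 TOP mRNAs rose and 1 fell, with Eef1b2, an exchange factor of elongation factor 1, at 0.32 and Eef2 at 0.26. The Eef2 call was lost without RL e14 replicate 1 (limma adjusted p = 0.084) or RL e13 replicate 2 (0.071). Of 26 biogenesis genes 3 rose, and of 73 mitochondrial ribosomal protein genes 4 rose and 5 fell, shares at or below those of all genes (11% rose and 18.7% fell). Fau, whose product is cleaved into a ubiquitin-like part and Rps30, rose by 0.23. Of 4 Myc family genes 3 rose, with Mycl at 1.51. The calls of Fau and Myc were lost with no library block and without RL e14 replicate 1 or RL e13 replicate 2, at adjusted p-values from 0.069 to 0.12. Stress and dissociation genes moved with the gate: 9 of them (Fos, Fosb, Jun, Junb, Egr1, Ier2, Hspa1a, Hspa1b, Dusp1) summed to 741 to 925 CPM in the Atoh1 gate and 1436 to 3722 CPM in the Sox2 gate, and cells of the Atoh1 gate had more UMIs in 4 of 4 libraries. Their part in the small differences of members was not tested.

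The balance of Rpl22l1 and its parent Rpl22 stood at another level in the neuronal gates, with no test of the ratio itself. Rpl22l1 divided by Rpl22, both in CPM, was 0.29, 0.37 and 0.38 in the Mapt gate of the RL libraries and 0.21 at e16. In the Eomes and Lmx1a gate it was 0.22 and 0.35 in the RL libraries and 0.15 at e16. In the Atoh1 gate it was 0.47, 0.51, 0.50 and 0.59, and in the Sox2 gate 0.56, 0.65, 0.57 and 0.62. The neuronal gates did not overlap the progenitor gates. The ratio is read across gates only, since 3′ counts of different genes are not on a common scale.

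**Figure D3:**
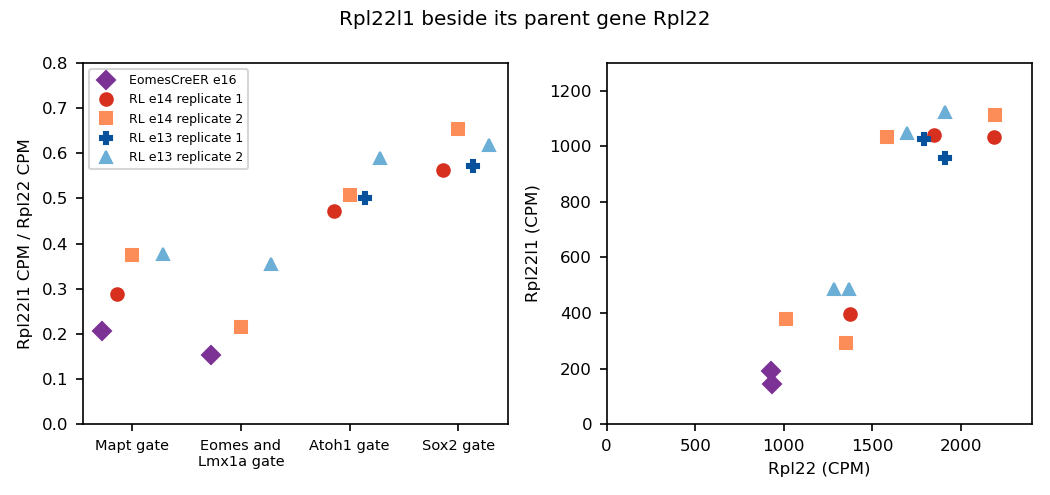
Left, the ratio of Rpl22l1 CPM to Rpl22 CPM (y axis) by gate (x axis); right, Rpl22l1 CPM (y axis) against Rpl22 CPM (x axis), 1 symbol for each gate and library. The ratio lies between 0.15 and 0.38 in the Mapt and the Eomes and Lmx1a gates and between 0.47 and 0.65 in the Atoh1 and Sox2 gates.

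Rps27l, a p53-inducible paralog of Rps27, fell with the other members. It fell by 0.90 in the Mapt gate against the Atoh1 gate, next to a fall of 0.68 for Rps27, and its ratio to Rps27 was 0.21 to 0.33 in the Mapt gate of the RL libraries and 0.27 to 0.38 in the Atoh1 gate. Rpl7l1 (-0.76), its parent Rpl7 (-0.66) and Rpl3 (-0.90) fell in the Mapt gate as well.

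RL e14 and RL e13 were compared on the mean of the Sox2 and Atoh1 gates, 2 libraries against 2. Of 80 members 0 rose and 0 fell with limma, as of all 8422 genes (0% called). An unadjusted p under 0.05 was found for 9 of the 80 members and 1191 of the 8422 genes, a smaller share for members. The median was 0.14, against -0.06 over all genes. 45 members were higher in both RL e14 libraries than in both RL e13 libraries and 1 was lower, against 15.8% and 34.4% of all genes. Rps18, a small subunit head protein, had 1065 and 1042 CPM in RL e14 and 794 and 843 CPM in RL e13, a difference of 0.36 (adjusted p = 0.30). Rpl27 had 770 and 863 CPM in RL e14 and 652 and 654 CPM in RL e13, Rpl5 had 1933 and 1948 CPM in RL e14 and 1659 and 1624 CPM in RL e13, and Rps24 had 4711 and 3708 CPM in RL e14 and 3467 and 3204 CPM in RL e13. The groups did not overlap for these 4 genes. Rpl6l, the member that was lower, had 6.92 and 6.16 CPM in RL e14 and 15.0 and 16.1 CPM in RL e13, levels close to the lower limit of the test. A test of whether the difference between the Atoh1 and Sox2 gates itself differed with age called 0 of 80 members and 0 of all genes, with 0 members at an unadjusted p under 0.05.

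2 members lay far outside this range. Rpl26, a large subunit protein near the exit tunnel, had 1070 and 1134 CPM in RL e14 and 29.3 and 262 CPM in RL e13, a difference of 3.53 ± 0.88 (SE, limma adjusted p = 0.30). Without RL e13 replicate 1 the difference was 2.05 (adjusted p = 0.014) and without RL e13 replicate 2 it was 5.01 (adjusted p = 0.00011), fits in which the lone RL e13 library is assumed to vary like the others. Rpl35a, the large subunit gene affected in a form of Diamond-Blackfan anaemia, had 110 and 164 CPM in RL e14 and 136 and 454 CPM in RL e13, a difference of -0.87 in which RL e13 replicate 2 stood apart.

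Library-wide shifts, known beforehand for Rpl26 and Rpl29, were listed for each member by 1 criterion: a gap of at least 0.5 in log2(CPM + 5) between 1 library and the nearest other, in the same direction in each gate measured and in 2 gates or more. 6 members met this, 5 in the e16 library and 1 in RL e13 replicate 1, of 80 members checked in each library. At e16, 2 members were higher and 3 lower, against 2.31% and 2.38% of 8554 genes, and in RL e13 replicate 1 the 1 member was lower, against 0.713% of genes, so the counts are near those of all genes. Rpl38 was just inside (-0.52), and Rps29 (0.48 in RL e14 replicate 1), Rplp0 (-0.45 in RL e13 replicate 2) and Rpl10a (-0.41 at e16) were just outside. Each shift is that of 1 library, with no replicate check.

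Rpl29, a large subunit protein, was present at e16 and nearly absent in the RL libraries. It had 634 CPM in the Mapt gate and 666 CPM in the Eomes and Lmx1a gate at e16, against 3.17 to 18.6 CPM in every gate of the RL libraries. At e16, 0.299% of cells had no Rpl29 UMI, and in the RL libraries 77.3% to 91.8% of cells had none. Rpl35a was higher at e16 as well, with 634 and 675 CPM in the Mapt gate and the Eomes and Lmx1a gate, against 75.4 to 296 CPM in the same gates of the RL libraries. Rpl22l1, Rps3a1 and Rpl38 were lower at e16: in the Mapt gate Rpl22l1 had 191 CPM against 378 to 486, Rps3a1 had 984 CPM against 1776 to 2114, and Rpl38, known from mice for its role in Hox mRNA translation, had 187 CPM against 299 to 478 in the RL libraries.

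**Figure D4:**
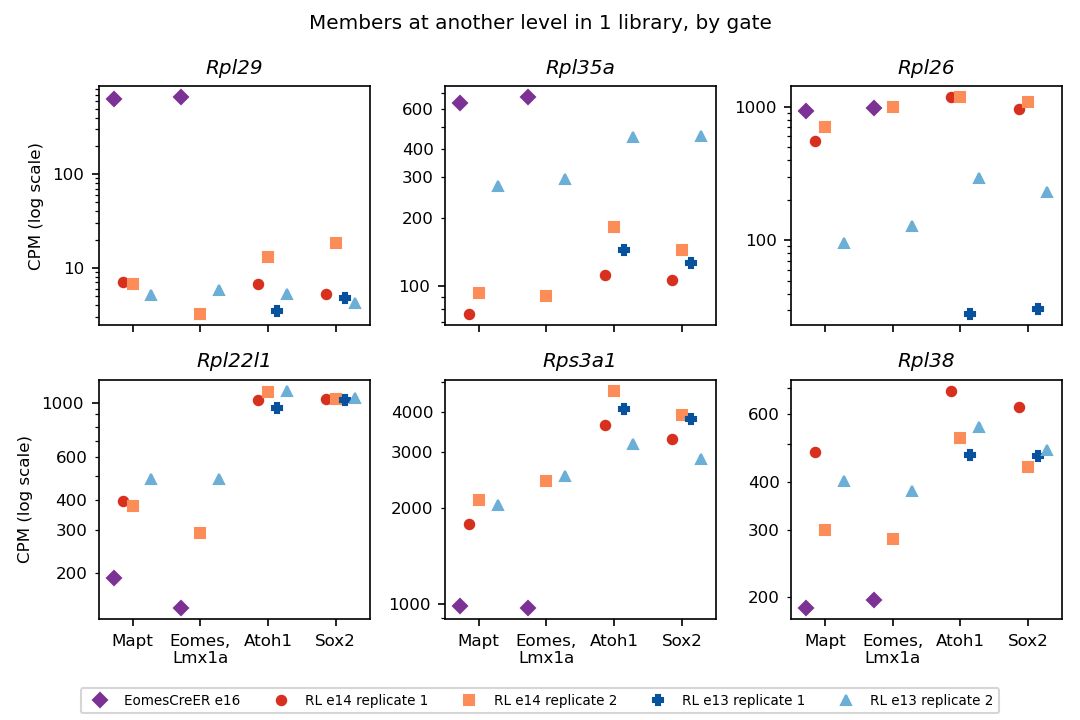
CPM (y axis, log scale, a scale of its own in each panel) of the 6 members at another level in 1 library, by gate (x axis); each symbol is a library. Rpl29 stands at 634 and 666 CPM at e16 and at 18.6 CPM or less in the RL libraries, and Rpl26 at 27.9 and 30.7 CPM in RL e13 replicate 1.

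Beside these shifts most members were lower at e16 than in the RL libraries. In the Eomes and Lmx1a gate 64 of 81 members lay below every RL library and 9 above, against 30.7% and 34.2% of 8210 genes, with a median of -0.38. In the Mapt gate 51 of 80 members lay below and 11 above, against 25% and 31.8% of 8063 genes, with a median of -0.29. The e16 library is the only one of its line and age and has the lowest median UMI count, so line, age and library cannot be told apart.

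Rpl26 split the cells of 3 RL libraries into 2 sets with few cells between. With 3.5 UMIs per 10000 as the dividing level, set after the values were seen, 710 of 1046 cells were high in RL e14 replicate 1 (67.9%, 95% Wilson interval 65.0% to 70.6%), 549 of 741 in RL e14 replicate 2 (74.1%, 70.8% to 77.1%), 0 of 706 in RL e13 replicate 1 (up to 0.541%) and 287 of 1818 in RL e13 replicate 2 (15.8%, 14.2% to 17.5%). At e16, 2594 of 2676 cells were high, with no gap at that level. Between 2 and 5 UMIs per 10000 lay 7, 16, 2 and 20 cells of the 4 RL libraries in the same order, and 195 cells at e16. The high cells averaged 1591 and 1433 CPM at RL e14 and 1428 CPM in RL e13 replicate 2, and the low cells 27.1, 56.4 and 33.1 CPM, next to 28.8 CPM in RL e13 replicate 1.

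**Figure D5:**
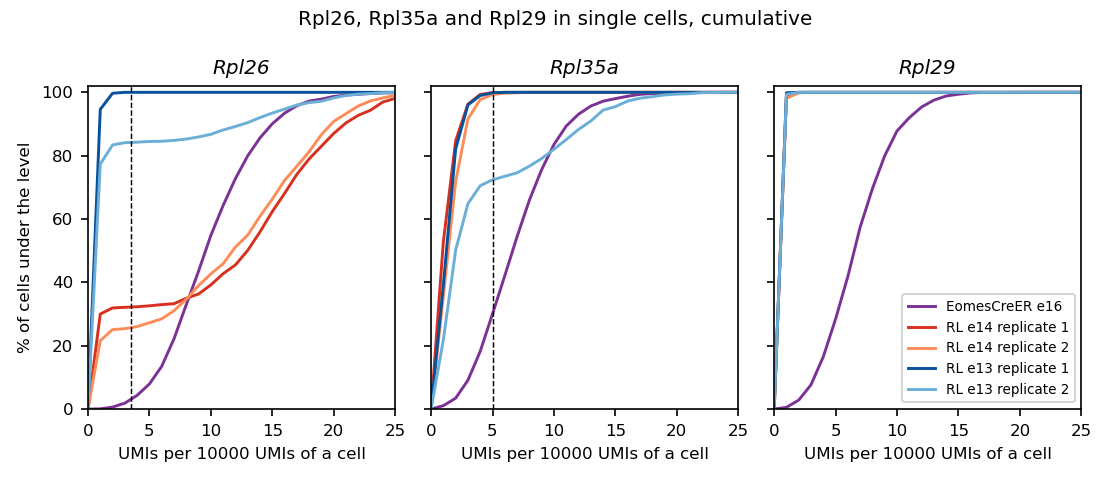
Cumulative share of cells (y axis, %) under a level of Rpl26, Rpl35a or Rpl29 (x axis, UMIs per 10000 UMIs of a cell), 1 line for each library; dashed lines mark the dividing levels of 3.5 and 5. The Rpl26 lines of RL e14 and RL e13 replicate 2 run flat at the dividing level, and 27.6% of the cells of RL e13 replicate 2 lie above it for Rpl35a.

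In the Sox2 and Atoh1 gates of these 3 libraries Rpl26 was the most uneven member among cells. The variance of Rpl26 over that of Poisson counting was 11.1 and 13 in the Atoh1 gate of the RL e14 libraries and 23.7 in that of RL e13 replicate 2, against medians of 2.48, 2.81 and 2.48 over members. In the Mapt gate of RL e14 replicate 2 it was 4.75, rank 22 of 79 members. In the Atoh1 gate of RL e13 replicate 1 it was 0.757, the lowest of 80. High and low cells occurred in the same gates, in shares that differed between libraries in no common direction. The Mapt gate held 5.35% of high and 11.9% of low cells in RL e14 replicate 1, 13.8% and 10.9% in RL e14 replicate 2, and 2.44% and 5.88% in RL e13 replicate 2. The Eomes and Lmx1a gate of RL e14 replicate 2 held 24 high cells and 1 low cell. Within high cells Rpl26 had 1122, 879 and 1064 CPM in the Mapt gate and 1709, 1699 and 1538 CPM in the Atoh1 gate of the 3 libraries.

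The 2 sets of cells differed in Xist and in Y-linked transcripts. Cells were counted by whether they held UMIs of Xist, expressed from the inactive X of females, or of Uty, Ddx3y, Kdm5d or Eif2s3y, which lie on the Y. In RL e14 replicate 1 the Rpl26-high cells held 336 with Xist alone and 285 with Y transcripts alone, and the low cells 332 and 0. In RL e14 replicate 2 the high cells held 2 and 485, and the low cells 179 and 6. In RL e13 replicate 2 the high cells held 3 and 242, and the low cells 684 and 707. RL e13 replicate 1, in which no cell was high, held 89 and 559. Cells with both kinds of transcript numbered 4 to 58 in each of these sets. The low level of Rpl26 occurred in cells with Xist alone and in cells with Y transcripts alone. The labels do not say how many embryos went into each library, and a part of the embryo of origin in the split was not tested.

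Rpl35a was also uneven in RL e13 replicate 2, with more cells between a high and a low set than for Rpl26. With 5 UMIs per 10000 as the dividing level, also set after the values were seen, 502 of 1818 cells were high (27.6%, Wilson interval 25.6% to 29.7%), at 1154 CPM, and 1316 were low, at 160 CPM, with 404 cells between 2 and 5. High cells held 6 with Xist alone and 425 with Y transcripts alone, and low cells 681 and 524. In the other RL libraries at most 5 cells were high. The Rpl26 and Rpl35a splits crossed: of the cells with Y transcripts alone, 149 were high for both, 93 for Rpl26 alone, 276 for Rpl35a alone and 431 for neither.

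Rps3a1, a small subunit protein at the mRNA exit, differed between these sets too. In RL e13 replicate 2 it averaged 3843 CPM in the Y-transcript cells high for both genes, 2041 CPM in those high for Rpl26 alone, 2562 CPM in those high for Rpl35a alone and 3600 CPM in those high for neither. In RL e14 replicate 1 it averaged 3952 and 4210 CPM in the Rpl26-high cells with Xist and with Y transcripts, against 1922 CPM in the Rpl26-low cells with Xist. The 25th to 75th percentiles of the low cells, 1546 to 2258 CPM, lay below those of the high cells with Xist, 3324 to 4727 CPM. In RL e14 replicate 2 it was 3966 CPM in high cells with Y transcripts and 4158 CPM in low cells with Xist. Beyond Rpl26 itself, no member but Rps3a1 in RL e14 replicate 1 and Rpl35a in RL e13 replicate 2 differed by more than 0.5 in log2 between Rpl26-high and Rpl26-low cells of the Sox2 or Atoh1 gate, and none did in RL e14 replicate 2. Since cells of 1 library are not replicates, none of these values carries a test.

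Reads of ribosomal protein genes can be shared with processed pseudogenes, which bears on how firmly single levels can be read. Of the 60-base words in the last 300 bases of each member's annotated transcript, a median of 56.8% also occurred in transcripts of other genes, 63 of 81 members shared some, and 43 shared more than 50%. The share was 58.5% for Rpl26, 36.1% for Rpl29, 49.0% for Rpl35a, 69.7% for Rps3a1, 100% for Rpl10 and 0% for Rpl7l1. It was 61.8% for Rpl22l1 and 16.6% for its parent Rpl22. The sources used here do not say how shared reads were counted, so levels of members with shared words are uncertain. The part of shared words in the shifts of Rpl26, Rpl29, Rpl35a and Rps3a1 was not tested. Their part in the differences of Rpl22l1 and in its ratio to Rpl22 was not tested either.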

How the data were processed

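Cells of 5 mouse cerebellum libraries were profiled with droplet 3′ kits (versions v3 and v3.1 according to the protocols, with no assignment to libraries). Reads were processed with Cell Ranger against mm10, per the submitters' processing notes. The authors deposited natural log values, ln(1 + UMIs per 10000 UMIs of the cell), for 15971 genes and 6987 cells, with 2106 to 6549 genes per cell, every gene in at least 10 cells and 0 mitochondrial genes. The values were turned back into UMIs: 100% of 29540669 values above 0 were whole within 0.01. No doublet caller was run, and the sources used here do not mention doublet removal.

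Cell titles were joined to samples by their prefixes; 1 prefix was assigned to the e16 library by elimination. A gate's CPM is the mean over its cells, scaled to 1000000. Differences were tested with limma 3.58.1 (R 4.3.3) on log2(CPM + 5) for genes with a mean of at least 10 CPM, with a mean-variance trend, the library as a block between gates, and Benjamini-Hochberg adjustment over all genes tested at 0.05. A fold change on this scale understates that of low genes. Library totals ran from 13607965 to 33502151 UMIs, and Wilson intervals (95%) cover counting error only. The fit was tested on simulated data, and since the outcome is not given here it adds no support to the calls. Python 3.11.15, numpy 2.4.6, scipy 1.17.1, pandas 2.3.3 and matplotlib 3.10.9 were used.

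The members, lists and tests were chosen with earlier results of these data known. Genes were named by rule: the 5 highest and 5 lowest members in each comparison, paralogs with their parents, Rplp0, Rplp1, Rplp2, Rpsa, Rpl5, Rpl11, members with library-wide shifts, and up to 3 called genes of each list. Eef2, Rrn3 and the not-called extremes of lists were named after their values were seen. Some genes that the rule names are not reported here. The division of cells by Rpl26 and Rpl35a and the test of the gate difference with age were added after the data were seen. Other scalings, pseudocounts, filters, gates, thinned cells and libraries left out were tried as alternatives.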

Additional observations from a re-analysis of the deposited data

How the results depend on the processing

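Of the alternatives to the counts of members called and the share differences, 186 kept their direction and stayed close to the reported value, 11 moved and 1 reversed. The count of members that rose in the Atoh1 gate against the Sox2 gate was 61 with median of ratios scaling, 24 with no filter on low values and 5 with no library block, and 3 to 62 when single libraries were left out; the count that fell was 0 to 1. In the Eomes and Lmx1a gate against the Atoh1 gate, 14 members fell with no filter and 48 with no library block. For the settings without the filter, the block or a library, the shares of all genes called are not given here. Leaving out single libraries gave 76 to 79 members lower in the Mapt gate against the Atoh1 gate, and 0 to 1 higher in RL e14 against RL e13. The share difference of the Mapt gate and the Eomes and Lmx1a gate reversed to 0.210 points as a median over cells. Among single genes, 1564 values stayed, 83 lost the call, 16 gained it and 7 reversed. Rpl22l1 in the Atoh1 gate against the Sox2 gate was -0.00690 with overlapping gates, -0.00159 with summed UMIs, and -0.00292 to 0.0656 when single libraries were left out, below 0 without RL e14 replicate 2 and without RL e13 replicate 2 (-0.00204). Rpl26 in that comparison was -0.00526 with thinned cells. When the age tag instead of the title placed the libraries, Rpl35a was 0.557 and Rplp0 -0.0778 in RL e14 against RL e13. The cause was not tested for any of these.

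Same-numbered RL libraries did not deviate together (correlation of their deviations 0.056 over 8422 genes). The labels do not say whether the numbers pair libraries, and this correlation alone cannot decide it, since other differences between libraries enter it too. With the replicate block, 0 members rose and 0 fell in RL e14 against RL e13, as without it. For the Eomes and Lmx1a gate against the Atoh1 gate, doubled thresholds, a minimum of 50 cells and leaving out a library left fewer than 2 libraries and gave no test. The 25 cells per library there, and 2 libraries per age, limit what could be detected.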
